A study of Homo sapiens with 4 samples.

Results

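The p53 pathway of Hap1 cells was described through 48 genes, listed by name, that p53 is known to activate or that regulate apoptosis. The list was compared between the parental Hap1 control (2 arrays) and Baz2B-KO (2 arrays). Of the 48 genes, 28 have a probe set named by the platform annotation, 10 have one named only by the results table in the study's supplement, and 10 have no named probe set here (GADD45B, BTG1, XPC, DDB2, FDXR, ZMAT3, FAS, CASP8, CASP9 and PERP). One probe set was used per gene, the one with the highest mean over the 4 arrays.

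Hap1 is a near-haploid human line of chronic myelogenous leukaemia origin, and Baz2B-KO is a purchased Hap1 line with a CRISPR/Cas9 deletion in a coding exon of BAZ2B, a regulatory subunit of ISWI chromatin remodelers. Both lines were grown in serum-containing IMDM, passaged every few days and trypsinised, and no DNA-damaging agent is named for either of them. The comparison is between 1 edited line and 1 parental line, so loss of Baz2B and other differences between the 2 lines cannot be told apart. The sources do not state whether separate cultures lie behind the 2 arrays of a line. Array names in the study's supplementary results table carry one mark for the first array of both lines and another for the second, without explanation. What the p-values weigh is array-to-array spread that may be technical.

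The p53 protein is a transcription factor that is kept scarce by the ubiquitin ligase MDM2 and is stabilised when DNA is damaged or growth is disturbed. Its targets stop the cell cycle, repair DNA, adjust metabolism or trigger apoptosis, and several of them, MDM2 among them, act back on p53. No probe set of BAZ2B is named in either table, so the edited gene was not analysed here.

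The values are log2 intensities of GeneChip Human Gene 2.0 ST arrays after RMA. Probe sets above 3.5 in at least 2 arrays entered the limma test, with Benjamini-Hochberg adjustment over the 11235 of them that have a platform name. A fold change is given in log2 units with its standard error after ±, and a positive value means a higher mean in Baz2B-KO. Over these probe sets the 2 controls correlated with r = 0.989, the 2 Baz2B-KO arrays with r = 0.992, and arrays of different lines with r between 0.983 and 0.987. Precision is set by having 2 arrays in each line. For a single gene the smallest p that an exact two-sided permutation test could reach is 0.333. Of 14 blood lineage markers, 7 were tested and none passed the adjusted threshold. SPI1 (log2 fold change 0.28, unadjusted p = 0.0458 from limma) and GATA2 (0.22) lay higher in Baz2B-KO without overlap. CD33 (0.47) read 3.44 and 3.28 in the controls and 3.81 and 3.83 in Baz2B-KO. It passed the intensity limit through the Baz2B-KO arrays only. CD33 is also named by the supplement alone and in view because its p was low, so its difference supports nothing. LMO2 (0.20), GATA1 (0.01), TAL1 (-0.07) and MYB (-0.31) overlapped, and the part of these markers in the results was not tested. PTPRC, which encodes the leukocyte surface marker CD45, has no named probe set, and CD34 and CD38 did not exceed the intensity limit in 2 arrays.

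Of the 48 genes, 35 were tested, 25 with a platform name and 10 named by the supplement alone. No tested member passed an adjusted p of 0.05 in either direction, where 0.668% of all tested probe sets did. The smallest called log2 fold change of any probe set was 0.70 in size, and only PHLDA3, at 0.71, exceeded that size among the members. At an unadjusted p under 0.05, 7 of the 25 members with a platform name were higher in Baz2B-KO (BBC3, TP53I3, BAX, SESN1, PLK3, PLK2 and BAD), beside 5.38% of all tested probe sets, and 0 of 25 were lower, beside 4.47%. The 7 became 4 without control replicate 2 and also 4 without Baz2B-KO replicate 2, with 7.02% and 3.59% of all tested probe sets past the same limit. Both Baz2B-KO arrays lay above both controls for 10 of the 25, beside 21.9% of all tested probe sets, and below both controls for 1 of them, MCL1, beside 15.9%. The log2 fold change lay above 0 for 18 of the 25, beside 54.8% of all tested probe sets. The median log2 fold change of the 25 was 0.14, and that of all tested probe sets was 0.02. Without Baz2B-KO replicate 1 the median of the 25 was 0.07.

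The 10 genes named by the supplement alone were treated apart. The rows of that table held here are those of lowest p in the same comparison, so these genes are in view because their p was low. All 10 had an unadjusted p under 0.05 and both Baz2B-KO arrays above both controls, with log2 fold changes from 0.28 to 0.71, and this count is a description and supports nothing. With 1 array left out, the number with an unadjusted p under 0.05 was 7 without control replicate 1, 5 without control replicate 2, 6 without Baz2B-KO replicate 1 and 4 without Baz2B-KO replicate 2. The members that have no named probe set may include genes that did not differ.

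Short p53 response elements were looked for in RefSeq windows from 250 bases before to 50 after each annotated start site (GRCh38.p14). A gene can have several start sites, with 35116 windows for 27305 genes. The targets were listed because p53 is known to activate them, so a count of elements among them is not independent of the list. A 20-base element was accepted with up to 3 mismatches to the p53 consensus, provided the C and G of both half-site cores were present. The element is palindromic, so that both strands were searched. It was found for 7 of the 41 members with a window, beside 1.37% of all 27305 genes with a window. The 7 were MDM2, SESN1, AEN and PMAIP1, which were tested, and FAS, DDB2 and FDXR, which have no named probe set. The element was found for 7 of 28 listed p53 targets with a window and for 0 of 13 other regulators. A match is a description of letters and not a bound site. The exact 10-base half-site, which may lie inside the longer element, was found for 9 of the 41 and for 8.06% of all genes. By class it was found for 6 of the 28 targets and 3 of the 13 other regulators, so that the classes did not divide as they did for the longer element. The stretches of the 4 tested genes with the element are shown, since their array values are described with the other members. Each runs 5′ to 3′ on the strand of the gene, and capitals mark the element.
MDM2: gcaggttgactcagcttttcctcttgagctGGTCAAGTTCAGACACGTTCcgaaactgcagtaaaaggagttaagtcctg
SESN1: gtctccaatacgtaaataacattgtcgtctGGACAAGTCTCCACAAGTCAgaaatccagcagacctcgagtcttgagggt
AEN: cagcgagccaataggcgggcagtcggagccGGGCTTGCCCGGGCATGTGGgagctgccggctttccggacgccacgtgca
PMAIP1: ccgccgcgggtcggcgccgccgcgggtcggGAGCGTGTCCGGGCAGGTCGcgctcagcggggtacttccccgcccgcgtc
The stretch of MDM2 lies at chr12:68808893-68808972 on the plus strand, with the element starting 94 bases before a start site and 2 mismatches. The SESN1 stretch lies at chr6:109008988-109009067 on the minus strand, with the element 49 bases before a start site and 3 mismatches. That of AEN lies at chr15:88621276-88621355 on the plus strand, with the element 34 bases before a start site and 2 mismatches. That of PMAIP1 lies at chr18:59899781-59899860 on the plus strand, with the element 185 bases before a start site and 3 mismatches. The stretches of MDM2, SESN1 and AEN lie inside the gene, before an inner start site. The spans are 68808172 to 68850686 for MDM2, 108984309 to 109094846 for SESN1 and 88604683 to 88632281 for AEN.

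**Figure D1:**
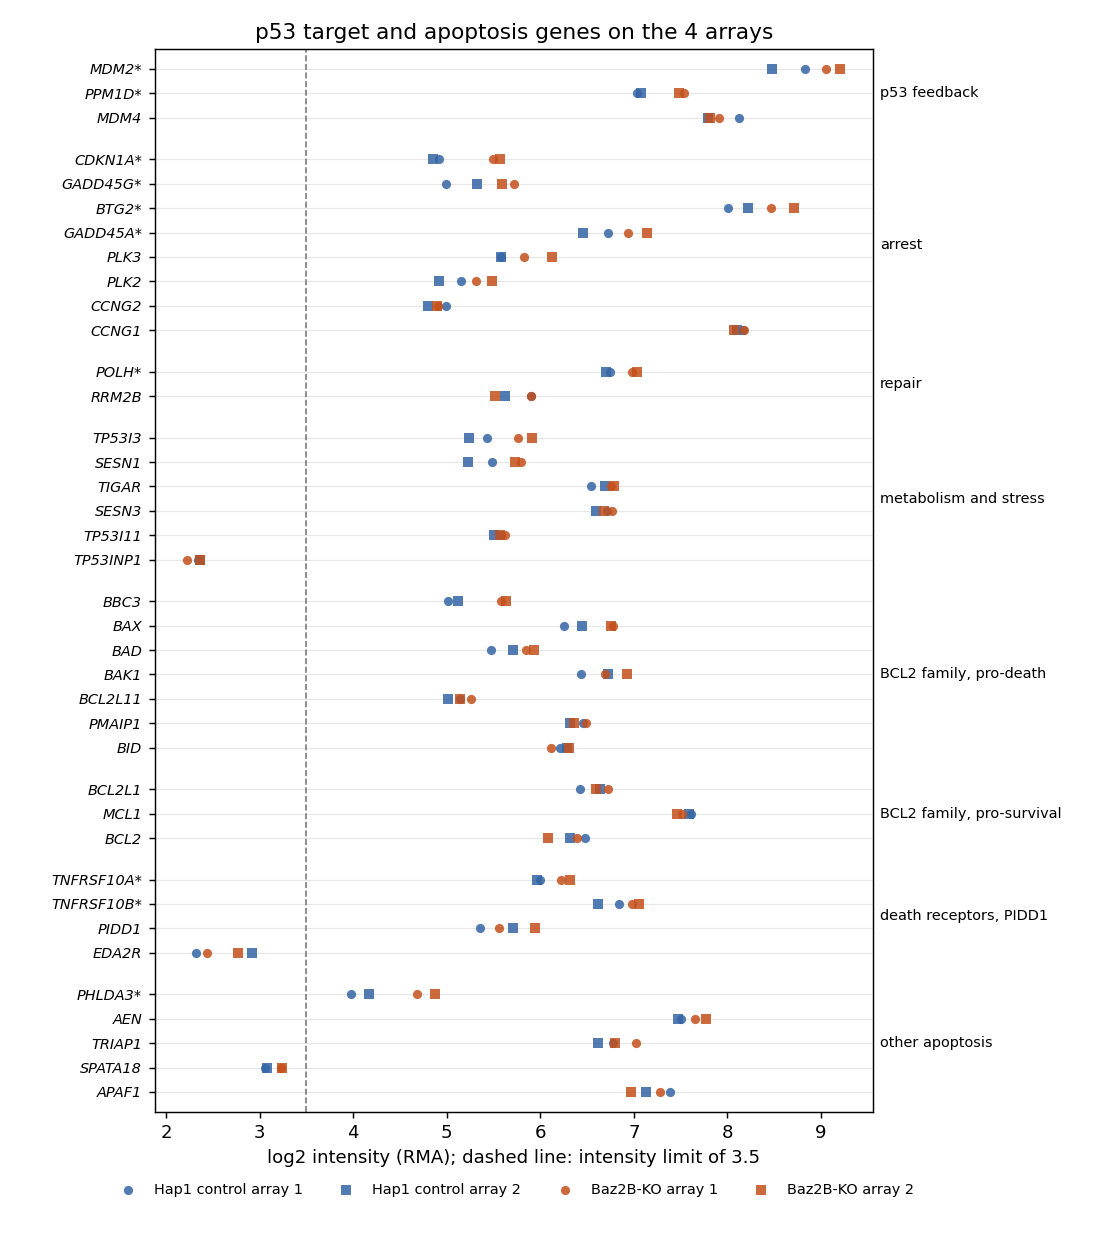
Log2 intensity (RMA) of the 38 members with a named probe set on the 4 arrays, grouped by role, with circles and squares for the first and second array of a line and asterisks for genes named by the supplement alone. Levels of different genes cannot be compared on this scale, and 3 genes lie below the intensity limit of 3.5 (dashed line).

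Among the genes that act back on p53, MDM2 and PPM1D lay above the controls in both Baz2B-KO arrays, and MDM4 did not. MDM2 and PPM1D are named by the supplement alone and are in view because their p was low, whereas MDM4 has a platform name. MDM2 (chromosome 12, 68808172 to 68850686, GRCh38.p14) encodes the ligase that marks p53 for degradation. Its brighter probe set read 8.83 and 8.48 in the controls and 9.05 and 9.21 in Baz2B-KO, and the groups did not overlap. The log2 fold change of MDM2 was 0.47 ± 0.147 (adjusted p = 0.345 from limma), and the dimmer probe set gave 0.68 (adjusted p = 0.193). PPM1D, which encodes the phosphatase WIP1 that dampens p53 signalling, read 7.04 and 7.07 in the controls and 7.53 and 7.48 in Baz2B-KO. The log2 fold change was 0.45 ± 0.108 (adjusted p = 0.184), and the arrays of each line lay close together. MDM4, an MDM2 relative that masks the activation domain of p53, read 8.12 and 7.79 in the controls and 7.91 and 7.82 in Baz2B-KO. Its log2 fold change was -0.09, with a 95% interval from -0.42 to 0.24, and both Baz2B-KO arrays lay between the controls.

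Of the 10 arrest genes, 8 were tested. Both Baz2B-KO arrays lay above both controls for 2 of the 4 with a platform name (PLK2 and PLK3), beside 21.9% of all tested probe sets, and for the 4 named by the supplement alone, which are in view because their p was low. CDKN1A (chromosome 6, 36676463 to 36687332, GRCh38.p14, probe set 17008007) encodes p21, the inhibitor of cyclin-dependent kinases through which p53 halts the cell cycle. It read 4.92 and 4.85 in the controls and 5.49 and 5.57 in Baz2B-KO, a 1.57-fold higher mean with a gap between the lines far wider than that within either. Its log2 fold change was 0.65 ± 0.109 (adjusted p = 0.0654 from limma), the lowest adjusted p of the 35 tested members. CDKN1A passed the test with the stricter intensity filter (adjusted p = 0.0402) and with arrays centred on their medians (adjusted p = 0.0463), and it did not with all retained probe sets tested (adjusted p = 0.313). Over the 13 alternatives its adjusted p lay between 0.0402 and 0.371.
BTG2, an antiproliferative gene of the BTG/TOB family, read 8.004 and 8.22 in the controls and 8.46 and 8.71 in Baz2B-KO. Its log2 fold change was 0.47 (adjusted p = 0.294), with a standard deviation of 0.154 in the controls and 0.174 in Baz2B-KO (n = 2 each). GADD45A and GADD45G encode small stress proteins that bind p21 and activate kinase cascades. GADD45A read 6.72 and 6.46 in the controls and 6.93 and 7.14 in Baz2B-KO (log2 fold change 0.45, adjusted p = 0.339). GADD45G read 4.99 and 5.32 in the controls and 5.72 and 5.59 in Baz2B-KO (log2 fold change 0.50, adjusted p = 0.285). The standard deviation of GADD45A was 0.186 in the controls and 0.144 in Baz2B-KO, and that of GADD45G was 0.233 and 0.0934 (n = 2 each).
PLK2 and PLK3, polo-like kinases that are induced by stress, are named by the platform annotation. PLK2 read 5.15 and 4.92 in the controls and 5.31 and 5.48 in Baz2B-KO (log2 fold change 0.36 ± 0.130, adjusted p = 0.423). PLK3 read 5.58 in both controls and 5.82 and 6.12 in Baz2B-KO (log2 fold change 0.39 ± 0.131, adjusted p = 0.383). The controls of PLK3 differed far less than its Baz2B-KO arrays. CCNG1, a cyclin gene that p53 activates and that acts on MDM2 through a phosphatase, read 8.17 and 8.10 in the controls and 8.18 and 8.07 in Baz2B-KO. Its log2 fold change was -0.01, with a 95% interval from -0.27 to 0.25, so the groups overlapped almost fully. CCNG2, a related cyclin gene under control of FOXO factors, had a log2 fold change of 0.004 that turned to -0.01 with cyclic loess scaling, with a 95% interval from -0.27 to 0.28.

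Only 2 of the 4 genes of repair and nucleotide supply were tested, POLH having both Baz2B-KO arrays above the controls and RRM2B not. POLH is named by the supplement alone and is in view because its p was low, whereas RRM2B has a platform name. POLH encodes the polymerase eta that copies past ultraviolet damage. It read 6.74 and 6.71 in the controls and 6.98 and 7.03 in Baz2B-KO (log2 fold change 0.28 ± 0.107, adjusted p = 0.453), with little spread within either line. RRM2B, which encodes the p53-inducible subunit of ribonucleotide reductase, read 5.90 and 5.62 in the controls and 5.90 and 5.52 in Baz2B-KO. The log2 fold change of RRM2B was -0.05 with a 95% interval from -0.44 to 0.33, and the arrays of the 2 lines overlapped.

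Of the 8 genes of metabolism and stress, 5 were tested, all by platform name. Both Baz2B-KO arrays lay above both controls for TP53I3, SESN1 and TIGAR, beside 21.9% of all tested probe sets. TP53I3 (chromosome 2, 24077433 to 24084834, GRCh38.p14), also called PIG3, encodes a quinone reductase that is linked to reactive oxygen. It read 5.43 and 5.23 in the controls and 5.76 and 5.91 in Baz2B-KO (log2 fold change 0.51 ± 0.124, adjusted p = 0.201). SESN1 encodes a sestrin that restrains mTORC1 signalling. It read 5.48 and 5.22 in the controls and 5.79 and 5.72 in Baz2B-KO (log2 fold change 0.41 ± 0.127, adjusted p = 0.348). For both genes the lower Baz2B-KO array lay above the higher control. TIGAR, which encodes a regulator of glycolysis, read 6.54 and 6.69 in the controls and 6.75 and 6.79 in Baz2B-KO (log2 fold change 0.16, adjusted p = 0.765). SESN3, a sestrin gene known as a FOXO target, showed a log2 fold change of 0.07 and TP53I11 one of 0.05, both with overlapping groups. TP53INP1, an autophagy and stress gene, lay between 2.23 and 2.37 on the 4 arrays and was not tested.

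**Figure D2:**
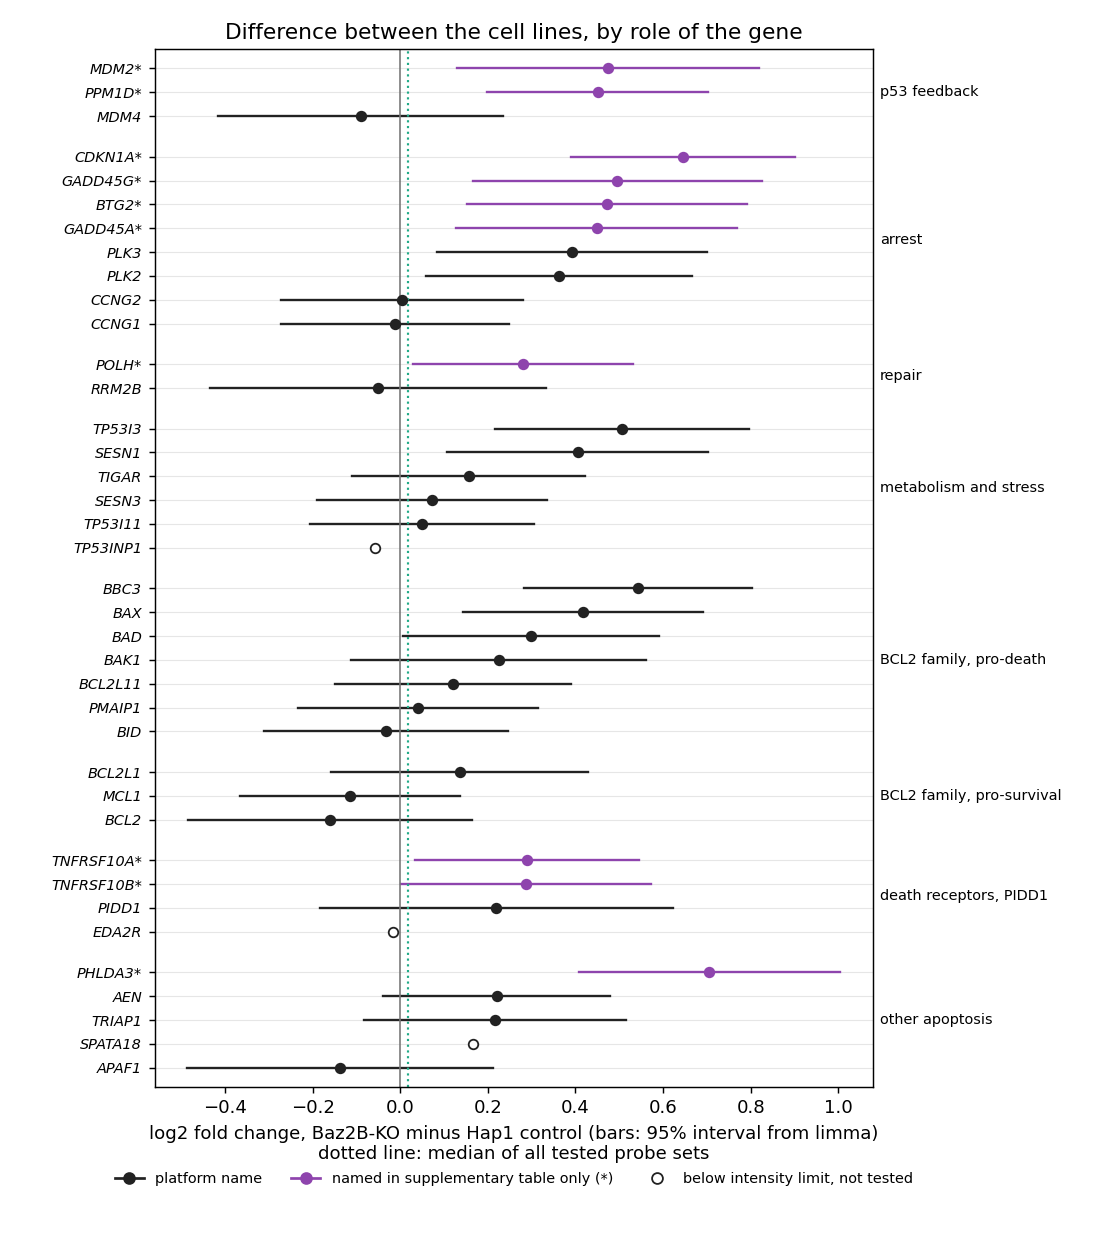
Log2 fold change of each member, Baz2B-KO minus Hap1 control, with the 95% interval from limma, grouped by role. Most intervals of the genes with a platform name include 0, and those in purple (named by the supplement alone) were in view because their p was low.

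In the BCL2 family, which decides whether mitochondria release their death signals, the genes that promote death were all tested. Of these, 3 of 7 had both Baz2B-KO arrays above both controls, beside 21.9% of all tested probe sets. BBC3 (chromosome 19, 47220824 to 47232860, GRCh38.p14) encodes PUMA, which binds and blocks the survival proteins of the family. It read 5.01 and 5.12 in the controls and 5.58 and 5.63 in Baz2B-KO, a 1.46-fold higher mean. Its log2 fold change of 0.54 ± 0.111 (adjusted p = 0.121) was the largest among the members with a platform name, and its arrays lay close together within each line. BAX encodes a pore-forming protein of the outer mitochondrial membrane. It read 6.25 and 6.45 in the controls and 6.78 and 6.76 in Baz2B-KO (log2 fold change 0.42 ± 0.117, adjusted p = 0.283). BAD, whose protein is held inactive by growth factor signalling, read 5.47 and 5.71 in the controls and 5.85 and 5.93 in Baz2B-KO (log2 fold change 0.30, adjusted p = 0.502), with the Baz2B-KO arrays closer together than the controls.
The other pro-death genes overlapped between the lines. PMAIP1 encodes NOXA, a BH3-only protein and a known p53 target. It read 6.45 and 6.32 in the controls and 6.49 and 6.36 in Baz2B-KO (log2 fold change 0.04), with a 95% interval from -0.23 to 0.31. The upper bound for PMAIP1 lies below the measured log2 fold changes of BBC3 and BAX. Their own 95% intervals, 0.28 to 0.80 and 0.14 to 0.69, overlap that of PMAIP1, and the differences between these genes were not tested. BAK1, which encodes the second pore-forming protein, showed 0.22, with a 95% interval from -0.11 to 0.56. BCL2L11, which encodes BIM, had one of 0.12, and BID, whose product is cut by caspase 8, had one of -0.03.
None of the 3 survival genes had both Baz2B-KO arrays above both controls, beside 21.9% of all tested probe sets. BCL2 read 6.48 and 6.32 in the controls and 6.39 and 6.09 in Baz2B-KO (log2 fold change -0.16), with a 95% interval from -0.49 to 0.16. MCL1, whose protein is short-lived, read 7.61 and 7.59 in the controls and 7.52 and 7.46 in Baz2B-KO. Its log2 fold change was only -0.11 (adjusted p = 0.835), although its groups did not overlap. BCL2L1, which encodes BCL-XL, read 6.42 and 6.64 in the controls and 6.73 and 6.60 in Baz2B-KO (log2 fold change 0.14), so that 1 Baz2B-KO array lay above both controls.

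Of the death receptor genes and PIDD1, 3 were tested, and the TRAIL receptor genes had the higher values in Baz2B-KO. Both TRAIL receptor genes are named by the supplement alone and are in view because their p was low, whereas PIDD1 has a platform name. TNFRSF10A, the gene of TRAIL receptor DR4, read 5.99 and 5.96 in the controls and 6.22 and 6.31 in Baz2B-KO (log2 fold change 0.29, adjusted p = 0.448). TNFRSF10B, the gene of DR5, read 6.84 and 6.62 in the controls and 6.98 and 7.05 in Baz2B-KO (log2 fold change 0.29, adjusted p = 0.506). The 2 genes are related in sequence and lie near each other on chromosome 8, and probes shared between them were not looked for. PIDD1, which encodes a death-domain protein of the caspase 2 platform, had a log2 fold change of 0.22 with a 95% interval from -0.18 to 0.62. The standard deviation of PIDD1 was 0.248 in the controls and 0.270 in Baz2B-KO (n = 2 each), larger than its difference between the lines. EDA2R, a receptor gene of the same superfamily, lay between 2.32 and 2.92 and was not tested.

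PHLDA3 had the largest log2 fold change of all members, but it is named by the supplement alone and is in view because its p was low. PHLDA3 (chromosome 1, 201464278 to 201469188, GRCh38.p14, probe set 16697930) encodes a repressor of the survival kinase AKT. It read 3.98 and 4.16 in the controls and 4.68 and 4.88 in Baz2B-KO, a 1.63-fold higher mean with no overlap. The log2 fold change was 0.71 ± 0.127 (adjusted p = 0.0813 from limma). The other probe set of PHLDA3, at 2.90 and 3.37 in the controls against 3.80 and 3.86 in Baz2B-KO, had 0.70 (adjusted p = 0.177). It passed the intensity limit through the Baz2B-KO arrays only. This second probe set is likewise in view because its p was low, so its similar value is not independent support. AEN, an apoptosis-linked nuclease gene, read 7.50 and 7.48 in the controls and 7.65 and 7.77 in Baz2B-KO (log2 fold change 0.22, adjusted p = 0.608). TRIAP1, an inhibitor of apoptosis, read 6.78 and 6.61 in the controls and 7.02 and 6.80 in Baz2B-KO (log2 fold change 0.22, adjusted p = 0.688), so that its arrays barely separated. APAF1, the scaffold of the apoptosome, read 7.39 and 7.13 in the controls and 7.28 and 6.97 in Baz2B-KO (log2 fold change -0.14), with overlapping groups. SPATA18, a gene of mitochondrial quality control, lay between 3.06 and 3.24 and was not tested, although its Baz2B-KO arrays were the higher ones.

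The 25 genes with a platform name were also divided by common knowledge into 15 listed as p53 targets and 10 listed as other regulators. The 10 were MDM4, CCNG2, SESN3, BAK1, BCL2L11, BID, BAD, BCL2, BCL2L1 and MCL1. Whether any of these 10 is also a p53 target was not looked into. This division was made with earlier results of these data known. Of the 15 targets, 6 were higher at an unadjusted p under 0.05 (5.38% of all tested probe sets) and 9 had both Baz2B-KO arrays above both controls (21.9% of all), with a median log2 fold change of 0.22. The 10 other regulators had 1 higher at that limit (BAD), 1 with both Baz2B-KO arrays above the controls and 1 with both below (15.9% of all), and a median of 0.04. Relative to its own mean over the 4 arrays, the median target stood at -0.07 and -0.12 in the controls and at 0.09 and 0.17 in Baz2B-KO, so that the 2 arrays of each line lay on the same side. The corresponding medians of the other regulators were 0.01 and -0.01 in the controls and 0.04 and -0.0004 in Baz2B-KO. Between the 2 controls the targets differed by a median of 0.166 in size, and between the 2 Baz2B-KO arrays by 0.131. Between the means of the lines they differed by 0.219. Over all tested probe sets the respective values were 0.148, 0.115 and 0.104. A difference of 2 means varies less than one of 2 single arrays, so these sizes are not like measures. The difference between targets and other regulators was not tested.

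**Figure D3:**
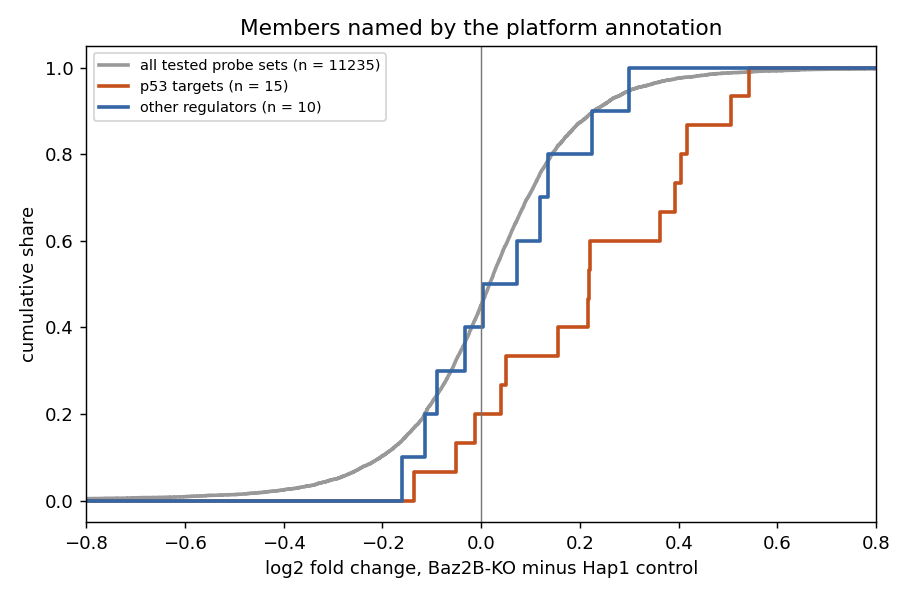
Cumulative share of log2 fold changes, Baz2B-KO minus Hap1 control, for 15 p53 targets, 10 other regulators and all 11235 tested probe sets. The curve of the targets lies to the right of the other curves over most of its range, with a median of 0.22, and that of the other regulators runs near the curve of all probe sets.

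The remaining genes of the pathway were described in 5 further lists, again counted by platform name. No member of these lists passed the adjusted threshold. Of 44 further p53 targets, 10 were higher and 1 was lower at an unadjusted p under 0.05, beside 5.38% and 4.47% of all tested probe sets, and 16 had both Baz2B-KO arrays above both controls, beside 21.9%. ACER2, a ceramidase gene, read 4.07 and 4.01 in the controls and 4.53 and 5.0 in Baz2B-KO (log2 fold change 0.72, adjusted p = 0.166). CPE, which encodes carboxypeptidase E, read 5.23 and 5.07 in the controls and 5.75 and 5.76 in Baz2B-KO (log2 fold change 0.60, adjusted p = 0.0977), and DUSP14, a phosphatase gene, had a log2 fold change of 0.44. In the other direction, GREB1 read 4.24 and 4.79 in the controls and 3.59 and 3.83 in Baz2B-KO (log2 fold change -0.80, adjusted p = 0.182). ATF3, a stress-induced transcription factor gene, had -0.26, and TMEM68 had -0.11. The median of these 44 genes was 0.10.
The 13 tested genes of p53 and its regulators held none with an unadjusted p under 0.05, beside 5.38% higher and 4.47% lower of all tested probe sets. TP73, the p53 relative, read 5.21 and 5.34 in the controls and 5.46 and 5.51 in Baz2B-KO (log2 fold change 0.21, adjusted p = 0.643). DAXX (0.17) and HIPK2 (0.15) were the next largest without overlap. CDKN2A, which encodes p16 and the MDM2 inhibitor ARF, showed a log2 fold change of -0.19, and the checkpoint kinase gene CHEK2 one of -0.17.
Of 35 tested genes of damage sensing and repair, 0 were higher and 5 were lower at an unadjusted p under 0.05, beside 5.38% and 4.47% of all tested probe sets. Both Baz2B-KO arrays lay below both controls for 13, beside 15.9% of all tested probe sets, and above both for 6, beside 21.9%. MGMT, whose protein removes alkyl groups from guanine in DNA, read 4.25 and 4.63 in the controls and 3.85 and 3.79 in Baz2B-KO (log2 fold change -0.62, adjusted p = 0.178). PMS2, a mismatch repair gene, had -0.40 (adjusted p = 0.348), and POLK, a translesion polymerase gene, had -0.33 (adjusted p = 0.385). XRCC1, a scaffold of single-strand break repair, had the largest value in the other direction, at 0.26, followed by HUS1 at 0.11 and CLSPN at 0.10. The median of the 35 was -0.06.
Genes that fall when p21 blocks the cell cycle, such as those of DNA replication and mitosis, had small log2 fold changes. Of 41 tested, none had an unadjusted p under 0.05 in either direction, beside 5.38% higher and 4.47% lower of all tested probe sets. The log2 fold change lay above 0 for 31, beside 54.8% of all. Both Baz2B-KO arrays lay above both controls for 12 and below both for 3, beside 21.9% and 15.9% of all. The median log2 fold change was 0.04 and the range was from -0.28 for CKS2 to 0.16 for PBK. MKI67, the proliferation marker, read 9.99 and 9.86 in the controls and 10.05 and 10.05 in Baz2B-KO. MCM2 and KIF20A each had a log2 fold change of 0.14, and KIF2C and CDC25C had -0.08 and -0.07. Of 13 other BCL2 family and caspase genes none had an unadjusted p under 0.05, beside the same shares of 5.38% and 4.47%. BMF, a BH3-only gene, was the one without overlap, at 0.14, beside 21.9% of all tested probe sets higher without overlap.

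**Figure D4:**
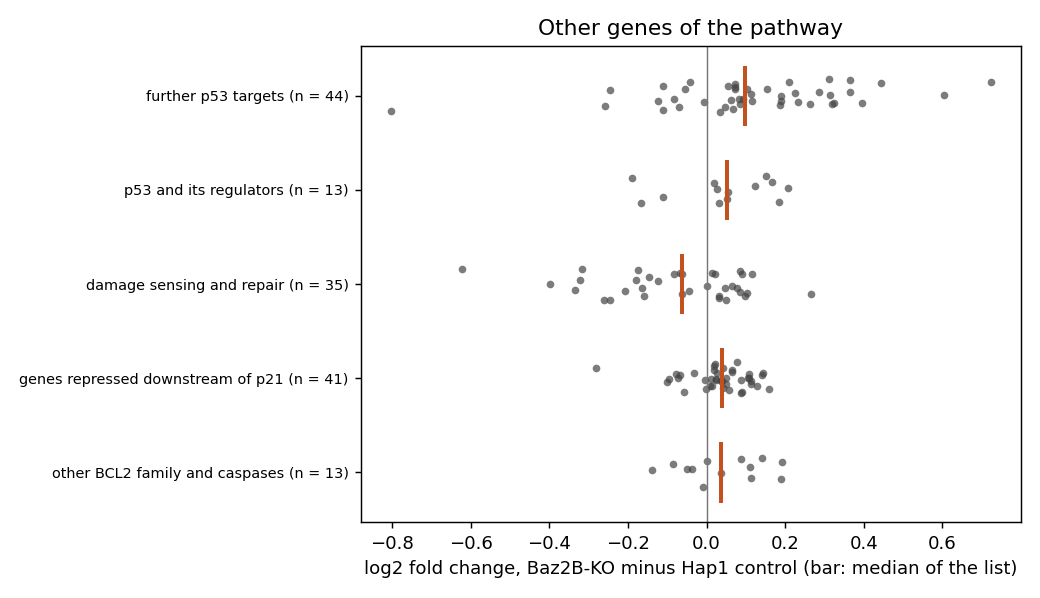
Log2 fold change, Baz2B-KO minus Hap1 control, of each tested gene with a platform name in 5 further lists of the pathway, with the median of each list as a bar. The further p53 targets have a median of 0.10 and the damage sensing and repair genes one of -0.06, and all points of the list downstream of p21 lie between -0.28 and 0.16.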

How the data were processed

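Total RNA of 4 Hap1 samples was hybridised to GeneChip Human Gene 2.0 ST arrays. Using oligo and its RMA routine, whose versions are not stated in what was read here, the authors made and deposited 1 log2 intensity per probe set and array for 53617 probe sets. RMA makes array distributions alike and shrinks differences near the background. An array has no read depth.

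Probe sets were named by the platform annotation (16098 with 1 gene, 0 with several, 37519 unnamed), otherwise by the identifiers of 1999 held rows of the study's supplementary results table. The authors' fold changes and p-values in that table were not used. Named probe sets that exceeded 3.5 in 2 or more arrays (11235) were tested with limma 3.58.1 in R 4.3.3 (lmFit, eBayes, no covariates, Benjamini-Hochberg, adjusted p under 0.05). A probe set named by the supplement alone took the prior of that fit, and its p was adjusted as if it alone had been added. The fit was tested on simulated data. Alternatives were other filters, all retained probe sets, trended or robust moderation, a block for replicate number, leaving out each array, 2 scalings, and averaging a gene's probe sets. Figures were drawn with matplotlib 3.10.9.

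The members, their roles and the further lists were chosen with earlier results of these data known. Array values are given for members with an unadjusted p under 0.05 and for contrasting members of the same role. From each further list, up to 3 genes per direction with the largest difference and no overlap are named.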

Additional observations from a re-analysis of the deposited data

How the results depend on the processing

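The count of members past the adjusted threshold was 0 in the reported fit and 1, CDKN1A, with the stricter intensity filter (above 4.5) and with arrays centred on their medians (log2 fold changes 0.65 and 0.66, adjusted p = 0.0402 and 0.0463). CDKN1A is named by the supplement alone and is in view because its p was low, so its passing supports nothing. With all retained probe sets tested its adjusted p from limma was 0.313. The count was 0 in the other 11 alternatives. With 1 array left out it was 0 throughout, and between 4 and 5 of the 25 members with a platform name were higher at an unadjusted p under 0.05. Their median log2 fold change lay between 0.07 and 0.15 over all alternatives. Of all tested probe sets, 75 passed in the reported fit, 41 with no intensity filter, 26 with all retained probe sets, 38 with the replicate block and 0 to 42 with 1 array left out. The labels do not explain the replicate numbers that the lines share. The array names in the study's supplementary results table tie the same unexplained mark to each number. Same-numbered arrays deviated together with r = 0.158. The replicate block changed no call among the members, and 7 of the 25 stayed higher at an unadjusted p under 0.05. Of the 35 tested members, 28 kept their direction in all 13 alternatives. The other 7 lay near 0 and changed sign, CCNG2 with cyclic loess (-0.012). With 1 array left out the ranges were -0.26 to 0.075 for MDM4, -0.067 to 0.042 for CCNG1, -0.094 to 0.10 for CCNG2, -0.24 to 0.14 for RRM2B, -0.026 to 0.11 for PMAIP1, -0.13 to 0.064 for BID and -0.29 to 0.018 for APAF1. A further 13 members kept their direction but moved by over 1.5 times, 4 of them with an unadjusted p under 0.05 in the reported fit (PLK3, BAD, MDM2 and TNFRSF10B). Examples are 0.028 to 0.41 for PIDD1, 0.079 to 0.37 for BAK1 and -0.31 to -0.01 for BCL2. The cause of these changes was not tested.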
